A study of Mus musculus with 6 samples.

Results

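Schwann cells are the glia of peripheral nerves and reach the dermis along its nerve fibres. They arise from the neural crest under the transcription factor SOX10, survive on neuregulin signals read by ERBB3, and lie around axons either with or without a myelin sheath. In culture or after nerve injury they give up myelin genes and carry NGFR, GAP43 and GFAP instead. The genes described here are 8 that are widely used to mark these cells or other glia, Gfap, Gfra2, Pmp22, Ncam1, Sox10, S100b, Ngfr and Erbb3, found by gene symbol among the 23407 genes of the table. All 8 were present.

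RNA was measured by bulk sequencing of poly(A) RNA in 6 libraries of cultured mouse dermal fibroblasts. The 3 TSP2KO libraries came from mice labelled as lacking thrombospondin-2, a secreted matricellular protein, and the 3 WT libraries from mice labelled wild type. In both groups the cells were taken from dorsal skin of 12-week-old mice, freed of epidermis and fat, digested with collagenase, grown for 3 to 5 days in serum and harvested at passage 1. The labels give no strain and no construct, and nothing says that replicates are separate animals or cultures. The p-values below therefore rest on a spread among libraries that may be partly technical.

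The values are normalised reads per gene, and estimated depth lay between 14776568 and 20522115 reads in TSP2KO and between 18266669 and 34599944 reads in WT. Thbs2, the targeted gene, had 5177, 6635 and 4891 normalised reads in TSP2KO 1, 2 and 3, against 122061 and 116720 in WT 1 and WT 2 and 8841 in the library labelled WT 3, which went against its label. The 8 genes are therefore given with and without that library, and other genes without it where that changed the call. On the first principal component (45.4% of variance) the library labelled WT 3 lay at -64.1, while WT 1 and WT 2 lay at 65.0 and 67.1. TSP2KO 1, 2 and 3 lay at -51.7, -20.5 and 4.0. TSP2KO 3 also stood apart from the other TSP2KO libraries, at 90.3 on a second principal component (33.8%) where they lay at 4.2 and 0.8. Fibroblast markers were abundant in every library, with 163750 to 268040 normalised reads summed over 10 genes in TSP2KO and 195930 to 367560 in WT. In bulk RNA, fewer cells of a type and less RNA per cell cannot be told apart.

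Gfap showed the greatest difference of the 8 genes and S100b the smallest, while Ngfr varied most among the WT libraries. The 250 bases before the annotated transcription start of these genes (RefSeq, GRCm38.p6) are shown for that reason, with capitals marking GGGCGG, the GC box, on either strand. They are Gfap, minus strand, chr11:102897201-102897450; Ngfr, minus strand, chr11:95587699-95587948; and S100b, plus strand, chr10:76253586-76253835.
Gfap: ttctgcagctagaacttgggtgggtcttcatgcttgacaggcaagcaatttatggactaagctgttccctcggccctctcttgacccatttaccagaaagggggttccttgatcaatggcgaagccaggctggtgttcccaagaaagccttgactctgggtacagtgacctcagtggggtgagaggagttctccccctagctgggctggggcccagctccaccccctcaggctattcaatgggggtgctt
Ngfr: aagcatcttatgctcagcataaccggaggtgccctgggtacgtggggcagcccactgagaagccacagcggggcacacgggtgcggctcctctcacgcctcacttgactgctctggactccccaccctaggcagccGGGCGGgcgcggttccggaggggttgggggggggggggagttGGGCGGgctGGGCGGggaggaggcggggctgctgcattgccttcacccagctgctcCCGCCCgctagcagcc
S100b: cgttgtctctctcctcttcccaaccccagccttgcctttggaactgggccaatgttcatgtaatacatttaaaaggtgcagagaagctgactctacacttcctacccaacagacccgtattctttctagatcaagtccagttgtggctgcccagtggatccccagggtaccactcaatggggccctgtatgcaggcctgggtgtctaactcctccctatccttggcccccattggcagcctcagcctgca

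The Ngfr window holds 4 GC boxes and 70.4% G and C, while the Gfap and S100b windows hold none, at 55.6% and 53.6%. A GC box is in 32.7% of the 32851 mouse promoter windows of this length. The SOX core motifs ACAAAG and ACAATG, searched on both strands, are in 16.5% and 10.7% of them. Promoter windows were matched for 4 of the 8 genes, with 7 windows between them for Gfap, Ngfr, Pmp22 and S100b. Neither SOX motif is in any of the 7 windows, which says only that these letters are not there.

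All 8 genes had a mean of at least 10 normalised reads over the 6 libraries and so entered the test, Gfap through its WT values alone. By limma with Benjamini-Hochberg adjustment, 0 of the 8 passed at an adjusted p under 0.05, where 9 of 14707 genes passed as lower in TSP2KO (0.0612%) and 0 as higher (0%). At an unadjusted p under 0.05, 4 of the 8 were lower (6.09% of all genes) and 1 was higher (3.66%). The groups did not overlap for 5 of the 8 (14.2% of all genes), with TSP2KO below WT for Gfap, Gfra2, Erbb3 and Pmp22 (8.27% of all genes) and above WT for Ncam1 (5.9%). They overlapped for Sox10, Ngfr and S100b. Without the library labelled WT 3, Gfap and Gfra2 passed as lower in TSP2KO, where 404 genes passed as lower (2.75%) and 357 as higher (2.43%). Without both that library and TSP2KO 3, 5 of the 8 passed as lower, Gfap, Gfra2, Erbb3, Ngfr and Pmp22. In that fit 4.47% of all genes passed as lower and 4.51% as higher. Leaving out both was chosen after the values were seen, here and wherever it is given below. The median log2 fold change of the 8 genes was -1.08 with all 6 libraries, beside -0.01 over all genes tested. The 8 genes and the lists below were chosen with earlier results of these data known. Their counts and medians beside those of all genes are therefore descriptions only.

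**Figure D1:**
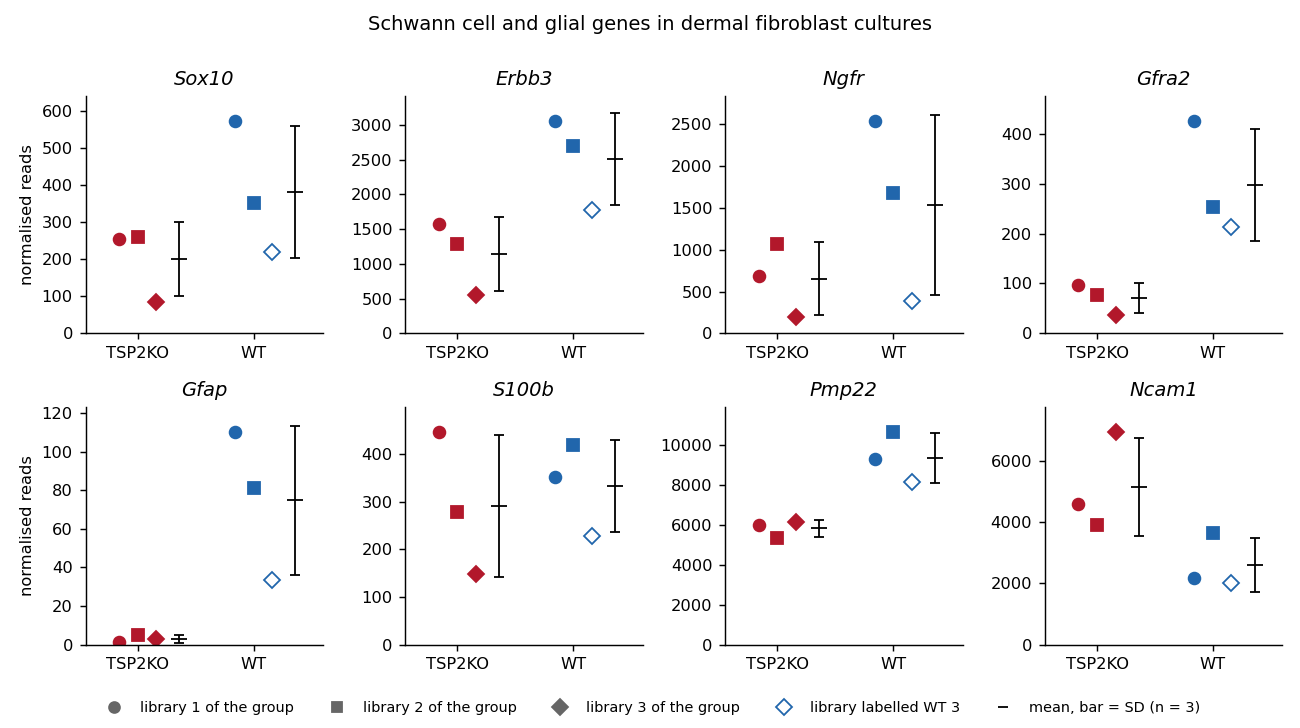
Normalised reads of the 8 Schwann cell and glial genes in each library (y axis from 0), with TSP2KO in red and WT in blue, the library labelled WT 3 drawn open, and the group mean with SD (n = 3). Gfap lies at 1.15 to 5.03 in TSP2KO against 33.4 to 110 in WT, and Ncam1 is the gene whose TSP2KO libraries all lie above WT.

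Sox10 encodes the transcription factor that specifies and maintains Schwann cells and melanocytes. It had 255, 261 and 85.5 normalised reads in TSP2KO 1, 2 and 3, against 573, 352 and 221 in WT 1, WT 2 and the library labelled WT 3. The groups overlapped, since the library labelled WT 3 lay below TSP2KO 1 and TSP2KO 2. The mean was 200.6 ± 99.8 in TSP2KO and 382 ± 178 in WT (SD, n = 3 each), a log2 fold change of -0.98 (SE 0.52, limma adjusted p = 0.625). Leaving out the library labelled WT 3 gave -1.33 (adjusted p = 0.173), and without TSP2KO 3 it was -0.46 (adjusted p = 0.937). The other SoxE genes gave little signal, with Sox9 at 5.34 to 52.6 in TSP2KO and 35.7 to 122 in WT, and Sox8 at no more than 3.38 in any library.

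Erbb3 encodes the receptor by which Schwann cells read axonal neuregulin, paired with ERBB2. It had 1579.9, 1291 and 549 normalised reads in TSP2KO 1, 2 and 3, against 3058, 2699 and 1772 in WT 1, WT 2 and the library labelled WT 3. Every TSP2KO library lay below every WT library, with TSP2KO 3 the lowest. The mean was 1139.9 ± 532 in TSP2KO and 2510 ± 663 in WT (SD, n = 3 each). The log2 fold change was -1.23 (SE 0.41, limma adjusted p = 0.382), or 2.35-fold lower in TSP2KO, and -1.47 without the library labelled WT 3 (adjusted p = 0.0927). Leaving out both that library and TSP2KO 3 gave -1.01 (SE 0.20, adjusted p = 0.025).

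Of the 8 neuregulins and ERBB receptors listed, 4 were tested and 0 passed. Erbb2, the partner of Erbb3, had 165, 161 and 144 normalised reads in TSP2KO, against 154, 110 and 164 in WT, and the groups overlapped. Egfr, a receptor shared by fibroblasts and epithelium, had 1266, 1438 and 938 in TSP2KO, against 3082, 3434 and 2683 in WT. Its log2 fold change was -1.35 (SE 0.21, limma adjusted p = 0.110), and -1.44 without the library labelled WT 3 (adjusted p = 0.0207), where it passed as lower in TSP2KO. Nrg1, the main ligand, had 26.4, 67.1 and 47.2 in TSP2KO, against 107, 97.3 and 173 in WT (log2 fold change -1.45, SE 0.41, adjusted p = 0.289). All TSP2KO libraries lay below all WT libraries for Egfr and Nrg1.

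Ngfr encodes the low-affinity neurotrophin receptor, which is high in immature and injury-activated Schwann cells. It had 686, 1069 and 198 normalised reads in TSP2KO 1, 2 and 3, against 2540 and 1675 in WT 1 and WT 2 and 389 in the library labelled WT 3. WT 1 and WT 2 lay above all other libraries, while the library labelled WT 3 lay within the TSP2KO range. The mean was 651 ± 437 in TSP2KO and 1535 ± 1082 in WT (SD, n = 3 each), a log2 fold change of -1.17 (SE 0.83, limma adjusted p = 0.719). Leaving out the library labelled WT 3 gave -1.97 (adjusted p = 0.124), leaving out TSP2KO 3 gave -0.47 (adjusted p = 0.943), and leaving out both gave -1.27 (SE 0.29, adjusted p = 0.0394).

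Of the 9 neurotrophins and their receptors, 7 were tested and 0 passed with all libraries. Ntrk3, the neurotrophin-3 receptor, was higher in all TSP2KO libraries, with 18.4, 12.9 and 34.7 normalised reads, against 2.58, 2.75 and 11.5 in WT (log2 fold change 1.95, SE 0.68, limma adjusted p = 0.407).

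Gfra2 encodes the co-receptor for neurturin, a member of the GDNF family. It had 95.9, 76.6 and 37.4 normalised reads in TSP2KO 1, 2 and 3, against 425, 253 and 213 in WT 1, WT 2 and the library labelled WT 3. The groups were well apart, and the library labelled WT 3 lay with WT. The mean was 70.0 ± 29.8 in TSP2KO and 297 ± 113 in WT (SD, n = 3 each), 4.31-fold lower in TSP2KO. The log2 fold change was -2.11 (SE 0.42, limma adjusted p = 0.162). Gfra2 fell past the threshold without the library labelled WT 3 (log2 fold change -2.32, SE 0.44, adjusted p = 0.0366).

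The other co-receptors of this family encode partners of GDNF (Gfra1) and artemin (Gfra3). Of the 9 genes of the family listed, 5 were tested, Gfra2 itself among them. With all libraries 0 passed, and all 5 had lower means of log2 values in TSP2KO. The median of their log2 fold changes was -1.90, beside -0.01 over all genes. Gfra1 had 1608, 2184 and 823 normalised reads in TSP2KO, against 8806, 6368 and 2697 in WT (log2 fold change -1.90, SE 0.51, limma adjusted p = 0.266). Gfra1 passed as lower in TSP2KO without the library labelled WT 3 (log2 fold change -2.39, adjusted p = 0.0267). Gfra3 had 571, 533 and 202 in TSP2KO, against 921, 1192 and 393 in WT, where the groups overlapped. The ligand gene Gdnf was lower too in all TSP2KO libraries, at 168, 171 and 82.8 against 298, 221 and 202 in WT (limma adjusted p = 0.488). Artn, another ligand gene, had 4.02, 4.48 and 0.89 in TSP2KO, against 31.9, 27.1 and 4.49 in WT (limma adjusted p = 0.461). Its groups parted only by 4.48 in TSP2KO 2 against 4.49 in the library labelled WT 3, values too low and close to tell apart. Ret, the signalling receptor that the co-receptors share, had 1.72, 5.59 and 13.4 in TSP2KO, against 8.76, 2.35 and 14.8 in WT.

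Gfap encodes glial fibrillary acidic protein, an intermediate filament of astrocytes and of non-myelinating and injured Schwann cells. It had 1.15, 5.03 and 2.67 normalised reads in TSP2KO 1, 2 and 3, which stand for 2, 9 and 3 reads. WT 1, WT 2 and the library labelled WT 3 had 110, 81.2 and 33.4, or 214, 207 and 52 reads. No TSP2KO library came near any WT library, and within WT the library labelled WT 3 was the lowest. The mean was 2.95 ± 1.96 in TSP2KO and 74.9 ± 38.8 in WT (SD, n = 3 each), a log2 fold change of -4.23 (SE 0.62, limma adjusted p = 0.0974), or 18.8-fold lower in TSP2KO on the log2(value + 1) scale. From the reads summed per group, 14 in TSP2KO and 473 in WT, the ratio was 26.0-fold lower in TSP2KO with an exact 95% interval of 15.3 to 47.9, which covers counting error only.

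Gfap fell past the threshold without the library labelled WT 3 (log2 fold change -4.72, SE 0.59, limma adjusted p = 0.0161) and without both that library and TSP2KO 3 (-4.73, SE 0.58, adjusted p = 0.00571). The size depended on the pseudocount and on the scale it was added to, with -2.60 at a pseudocount of 10 and -2.36 where values were first scaled to the library total. Among the other intermediate filament genes, Vim, which fibroblasts share, had 10873 to 14219 normalised reads in TSP2KO and 8824 to 15339 in WT. Nes, the nestin of neural progenitors and immature Schwann cells, had 556, 385 and 292 in TSP2KO, against 1222, 677 and 397 in WT, and the groups overlapped. Prph, a filament of peripheral neurons, was listed at 0 in 5 of the libraries.

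S100b encodes a calcium-binding protein used to stain Schwann cells, and is also made by melanocytes and fat cells. It had 446, 279 and 148 normalised reads in TSP2KO 1, 2 and 3, against 351, 419 and 228 in WT 1, WT 2 and the library labelled WT 3. Highest and lowest libraries were both TSP2KO. The mean was 291 ± 149 in TSP2KO and 333 ± 97.0 in WT (SD, n = 3 each), a log2 fold change of -0.29 (SE 0.43, limma adjusted p = 0.869). It was -0.54 without the library labelled WT 3 (adjusted p = 0.492) and 0.13 without TSP2KO 3. Of 10 S100 genes tested, 7 had a log2 fold change above 0 and 0 passed with all libraries. Without the library labelled WT 3, S100a3, S100a4, S100a6 and S100a11 passed as higher in TSP2KO, where 2.43% of all genes did. For each of them the library left out lay within the TSP2KO range. S100a4, a marker of fibroblasts and migrating cells, had 9897, 7484 and 13164 in TSP2KO, against 2607 and 3008 in WT 1 and WT 2 and 8241 in the library labelled WT 3.

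Pmp22 encodes a small membrane protein of compact myelin that is also made by fibroblasts, where it was first known as a growth-arrest gene. It had 5966, 5336 and 6137 normalised reads in TSP2KO 1, 2 and 3, against 9286, 10627 and 8133 in WT 1, WT 2 and the library labelled WT 3. This was the least variable of the 8 genes, with 1.99-fold between its highest and lowest library, and the groups stood apart. The mean was 5813 ± 422 in TSP2KO and 9349 ± 1248 in WT (SD, n = 3 each), a log2 fold change of -0.68 (SE 0.18, limma adjusted p = 0.263), and -0.78 without the library labelled WT 3 (adjusted p = 0.0554). Leaving out both that library and TSP2KO 3 gave -0.82 (SE 0.20, adjusted p = 0.044). Its relatives had log2 fold changes above 0. Emp1 and Emp2 (0.23 and 0.16) overlapped between the groups, and Emp3 had 3526, 2904 and 4283 in TSP2KO, against 1834, 2379 and 2492 in WT (log2 fold change 0.67, adjusted p = 0.353).

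Ncam1 encodes the neural cell adhesion molecule of neurons and non-myelinating Schwann cells, also present in mesenchyme such as the dermal papilla. It had 4602, 3908 and 6939 normalised reads in TSP2KO 1, 2 and 3, against 2189, 3629.7 and 2019 in WT 1, WT 2 and the library labelled WT 3. It was the single gene of the 8 with every TSP2KO library above every WT library, and TSP2KO 3 was the highest. The mean was 5149.5 ± 1588 in TSP2KO and 2612.5 ± 885 in WT (SD, n = 3 each), a log2 fold change of 0.99 (SE 0.31, limma adjusted p = 0.334). Leaving out the library labelled WT 3 gave 0.83 (adjusted p = 0.170), and leaving out TSP2KO 3 as well gave 0.59 (adjusted p = 0.226). An antisense gene, Gm11149, shares 417 exon bases with Ncam1 and had at most 11.5 normalised reads.

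Of the 8 genes of the NCAM and L1 families and polysialic acid synthesis, 7 were tested and 0 passed with all libraries. L1cam, an adhesion molecule of axons and non-myelinating Schwann cells, had 714, 580.1 and 240.4 normalised reads in TSP2KO, against 1958, 1289 and 632 in WT (log2 fold change -1.33, SE 0.52, limma adjusted p = 0.461). Nfasc, neurofascin, had 82.2, 139 and 37.4 in TSP2KO, against 207, 208 and 208 in WT (adjusted p = 0.333). St8sia2, an enzyme that adds polysialic acid to NCAM, had 31.0, 78.3 and 26.7 in TSP2KO, against 3.61 and 3.92 in WT 1 and WT 2 and 26.9 in the library labelled WT 3. It passed as higher in TSP2KO without that library (log2 fold change 3.12, adjusted p = 0.0331).

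**Figure D2:**
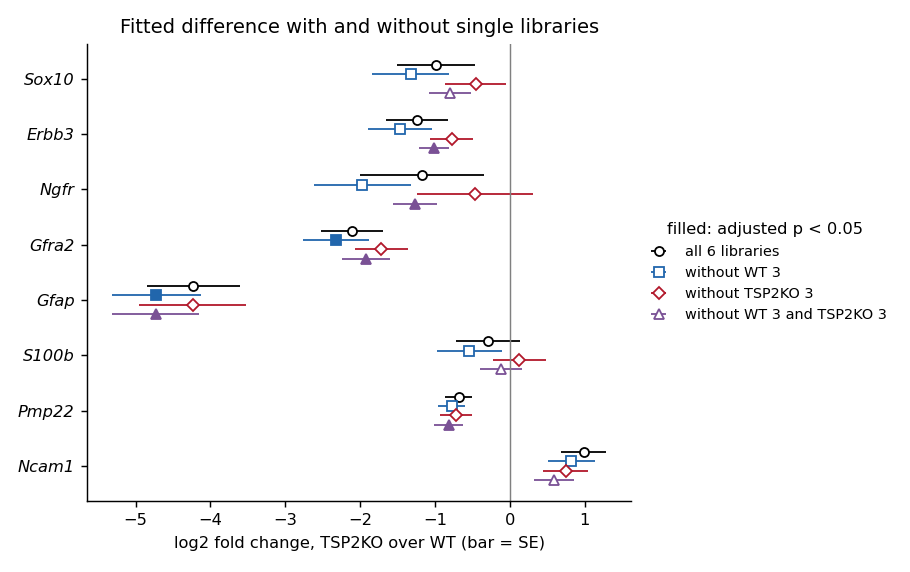
Fitted log2 fold change of each gene, TSP2KO over WT (x axis, bar = SE), with all 6 libraries and with the library labelled WT 3, TSP2KO 3 or both left out; filled symbols have a limma adjusted p under 0.05. Gfap stays between -4.73 and -4.23 in these fits, S100b lies on both sides of 0, and Ncam1 is above 0 in each.

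Levels were set against each other per kb of exon (GENCODE M21). Pmp22 led at 2470 ± 179 normalised reads per kb in TSP2KO and 3972 ± 530 in WT (SD, n = 3 each), and Ncam1 came next in TSP2KO at 594 ± 183, with 302 ± 102 in WT. Ngfr, Erbb3 and S100b formed a middle group, at 189 ± 127, 190 ± 88.4 and 196 ± 101 per kb in TSP2KO, and 445 ± 314, 417 ± 110 and 224 ± 65.3 in WT, and do not differ among themselves beyond their spread in TSP2KO. Sox10 followed at 65.8 ± 32.7 in TSP2KO and 125 ± 58.4 in WT. Gfra2 had 19.8 ± 8.43 in TSP2KO and 84.0 ± 31.9 in WT, within the spread of Sox10 in WT. Gfap was last in both groups, at 0.70 ± 0.46 per kb in TSP2KO and 17.8 ± 9.20 in WT.

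Other genes of the Schwann lineage were also abundant. Cdh19, a cadherin of the Schwann lineage, had 2862, 2175 and 989 normalised reads in TSP2KO, against 8601, 6906 and 2522 in WT (log2 fold change -1.53, SE 0.55, limma adjusted p = 0.416). Gap43, of growing axons and immature or repair Schwann cells, had 624, 478 and 132 in TSP2KO, against 4255, 2775 and 1427 in WT (log2 fold change -2.91, SE 0.63, adjusted p = 0.185). Every TSP2KO library lay below WT for Gap43, while for Cdh19 the library labelled WT 3 lay within the TSP2KO range. Cdh19, Gap43 and Cnp, a myelin-associated enzyme, passed as lower in TSP2KO without the library labelled WT 3 (log2 fold changes -2.07, -3.33 and -1.41, adjusted p = 0.0426, 0.0347 and 0.0421). Of 11 tested precursor, non-myelinating and repair genes, and of 7 tested myelin genes, 0 passed with all libraries, with median log2 fold changes of -0.80 and -0.41 beside -0.01 over all genes.

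Some other genes of the lineage were near 0. Mag, Dhh and Foxd3 were chosen here after their values were seen. Mag, an adhesion protein of myelin next to the axon, had 5, 9 and 0 reads in TSP2KO and 4, 9 and 0 in WT, and its counts of 0 allow up to 3 reads, or 2.67 normalised reads in TSP2KO 3 and 1.92 in the library labelled WT 3. Dhh, a hedgehog ligand that Schwann cells secrete, had 0, 7 and 3 reads in TSP2KO, against 36, 17 and 10 in WT. Foxd3, a neural crest transcription factor, had 1, 8 and 3 reads in TSP2KO, against 49, 26 and 15 in WT. Drp2, a dystrophin-related protein of myelinating Schwann cells, went the other way, with 241, 280.3 and 195 normalised reads in TSP2KO, against 119, 138 and 102 in WT (log2 fold change 0.98, SE 0.23, limma adjusted p = 0.217).

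**Figure D3:**
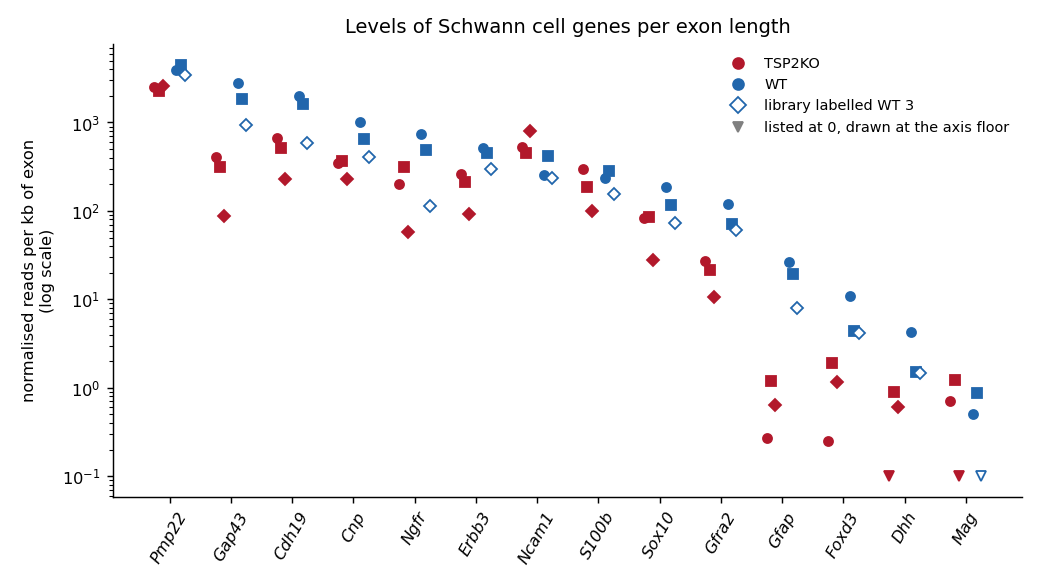
Normalised reads per kb of exon (log axis) in each library for the 8 genes and 6 other genes of Schwann cells, TSP2KO in red left of WT in blue, the library labelled WT 3 open, and triangles at the floor of 0.1 for values listed at 0. Pmp22 is the most abundant, Gfap spans from below 1.2 in TSP2KO to above 7.9 in WT, and Mag lies near the floor in both groups.

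The order of the libraries was shared by several of the 8 genes. Sox10 and Ngfr had the same order, from WT 1 and WT 2 through TSP2KO 2, TSP2KO 1 and the library labelled WT 3 to TSP2KO 3, and Gfra2 and Erbb3 shared another, with the 3 WT libraries first and TSP2KO 3 last. TSP2KO 3 was the lowest library for 5 of the 8 genes, and WT 1 the highest for 5. The library labelled WT 3 lay below WT 1 and WT 2 for all 8. How often these orders occur over all genes was not counted, so they are not shown to be particular to the 8. On the log2 scale, relative to WT 1 and WT 2 averaged, it stood at -2.40 for Ngfr, -1.48 for Gfap, -1.02 for Sox10, -0.70 for Erbb3 and -0.62 for Gfra2.

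The genes were also set against Sox10 within each library; this ratio was chosen after the values were seen and is given with no test. Per 100 normalised reads of Sox10, Erbb3 had 619, 494 and 643 in TSP2KO and 534, 766 and 803 in WT. It overlapped between the groups, as did Ngfr, S100b, Pmp22 and Cdh19. Ncam1 on this scale was higher in every TSP2KO library than in any WT library. Sox10 itself had a lower mean in TSP2KO, which raises the ratios of other genes there. The share of all genes whose groups part on this scale was not computed. Gfap had 0.45, 1.93 and 3.13 per 100 reads of Sox10 in TSP2KO, against 19.2, 23.1 and 15.1 in WT 1, WT 2 and the library labelled WT 3. Gfra2 had 37.6, 29.3 and 43.8 in TSP2KO, against 74.2, 71.8 and 96.5 in WT. On this scale Gfap and Gfra2 in the library labelled WT 3 lay nearer their values in WT 1 and WT 2 than any TSP2KO value. For both genes TSP2KO 3 was the highest TSP2KO library. The Gfap values of TSP2KO 1, 2 and 3 rest on 2, 9 and 3 reads.

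Over the 6 libraries, the genes whose log2 values were most like each of the 8 were found among 10364 genes by Pearson's r, as a description, since all points share the same few libraries. The 3 most like Gfap were Jade2, C1s1 and Prpf39 (r = 0.993, 0.993 and 0.990), and those most like Gfra2 were Dpep1, Man1a and Gap43 (0.995, 0.994 and 0.991). Sox10 was most like Plekha1, Plekha8 and Tnik (0.998, 0.997 and 0.995), Ngfr like Tgfbr1, Gadd45a and Dguok (0.998, 0.996 and 0.996), and Erbb3 like Sox2ot, Atp6v0e2 and Rin2 (0.997 each). Pmp22 was most like Rgs11, Stk3 and Elmod3 (0.992, 0.991 and 0.991) and Ncam1 like Trib2, Tsc22d3 and Cyb5rl (0.993, 0.992 and 0.989). S100b had the weakest matches, Smarca1, Mast2 and Enpp4 (0.967, 0.966 and 0.962). Gap43, the repair-state gene described above, was the single gene of the Schwann cell lists among these 24.

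Sox10, Erbb3 and S100b are also genes of melanocytes, and Erbb3 and Egfr of keratinocytes, so the markers of those cells are given beside them. The pigment enzyme genes and Pmel did not follow the library order of Sox10, while Mitf and Mlana were, like Sox10, higher in WT 1 and WT 2 than in any other library and lowest in TSP2KO 3. Mitf, the transcription factor of melanocytes, had 294, 259 and 155 normalised reads in TSP2KO, against 592, 660 and 441 in WT, a log2 fold change of -1.29 (limma adjusted p = 0.205). Tyrp1, a melanin enzyme, had 293, 88.4 and 16.03 normalised reads in TSP2KO 1, 2 and 3, against 5.15 and 8.24 in WT 1 and WT 2 and 541 in the library labelled WT 3. Dct, another, had 138, 43.1 and 0.89 in TSP2KO, against 4.12, 3.53 and 283 in WT. Tyr had 0 reads in WT 1 and WT 2, the libraries with the most Sox10, and in TSP2KO 3, the one with the least. Of the 10 melanocyte markers 7 were tested and 0 passed, 4 lower and 3 higher in TSP2KO by fitted value, and their sum was 2311 to 3144 in TSP2KO and 4132 to 7591 in WT, with Ednrb, an endothelin receptor that Schwann cells share, at 2097, 2142 and 2026 in TSP2KO and 4727, 6659 and 1661 in WT. Mitf and Ednrb passed as lower in TSP2KO without the library labelled WT 3 (limma adjusted p = 0.0421 and 0.0186).

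Keratinocyte markers summed to 549 to 13766 normalised reads over 12 genes in TSP2KO and 556 to 39394 in WT, with 0 of 9 tested genes past the threshold. Krt14, a basal keratin, had 5061, 4727 and 157 in TSP2KO 1, 2 and 3, against 553 and 180.4 in WT 1 and WT 2 and 15525 in the library labelled WT 3. Erbb3 was highest in WT 1 and WT 2, where Krt14 was low, and lowest in TSP2KO 3, where Krt14 was lowest. Within TSP2KO both genes fell from TSP2KO 1 through TSP2KO 2 to TSP2KO 3. Macrophage markers shared the direction of Gfap and Gfra2: all 12 were tested and lower in TSP2KO by fitted value, and 1 passed with all libraries (C1qb). They summed to 680 to 824 normalised reads in TSP2KO against 3026 to 5775 in WT, with 3026 in the library labelled WT 3. On the log2 scale relative to WT 1 and WT 2 averaged, that library stood at -0.009 for the 12 markers averaged. It stood at -1.48 for Gfap and -0.62 for Gfra2. The average joins markers that moved apart there. Lyz2 stood at -1.22 and C1qb at -0.40. Adgre1 instead rose, with 96.2 normalised reads against 67.5 and 85.1 in WT 1 and WT 2. The part of macrophage, melanocyte and keratinocyte RNA in the values of the 8 genes was not tested. Of the 10 fibroblast markers, 0 passed, 7 were lower and 3 higher in TSP2KO by fitted value, and the groups did not overlap for 3, Pdgfra, Lum and Dcn, each lower in TSP2KO. Dcn, decorin, had 12199.7, 11094 and 2368 normalised reads in TSP2KO, against 50984, 55417 and 38394 in WT (limma adjusted p = 0.182), and Pdgfra passed as lower in TSP2KO without the library labelled WT 3 (adjusted p = 0.0401).

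**Figure D4:**
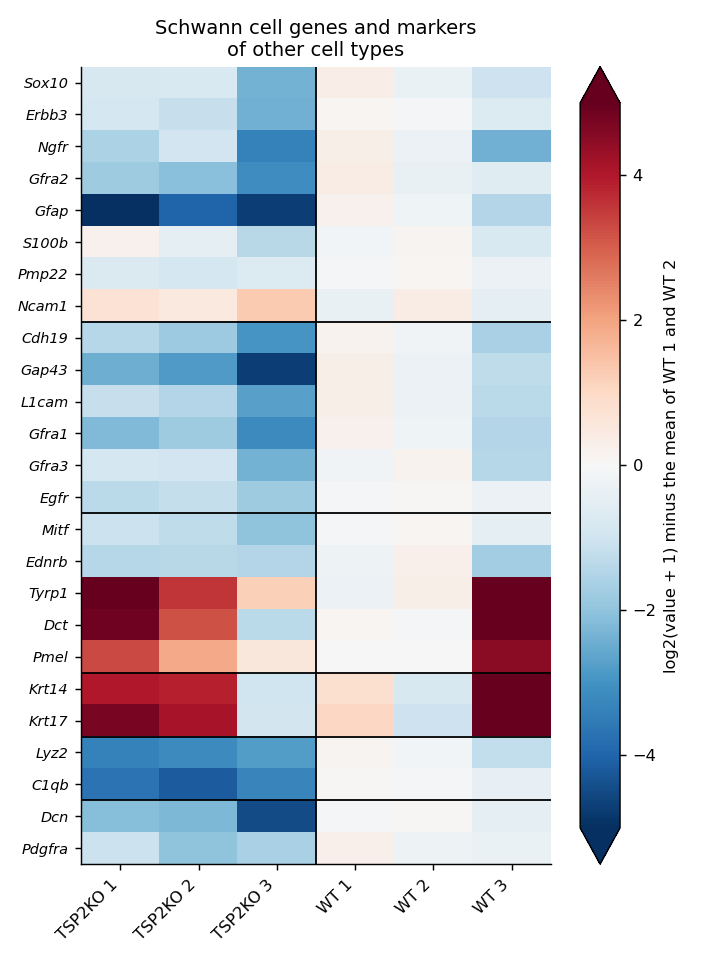
Log2(value + 1) of each gene minus the mean of WT 1 and WT 2, by library, TSP2KO left of WT, with the colour scale held to 5 in either direction; blocks from the top are the 8 genes, other Schwann cell genes and receptors, melanocyte, keratinocyte, macrophage and fibroblast markers. The upper blocks are mostly below 0 in TSP2KO, while Tyrp1, Dct, Krt14 and Krt17 are highest in the library labelled WT 3, TSP2KO 1 and TSP2KO 2. Of the 10 fibroblast markers only Dcn and Pdgfra are drawn, and 3 not drawn were higher in TSP2KO by fitted value. The other Schwann cell genes and receptors drawn were all lower in TSP2KO by fitted value. Genes of their lists that were higher, Drp2, Ntrk3 and St8sia2 among them, are not drawn.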

How the data were processed

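Per the file headers, the authors deposited a normalised signal per gene, named normalised counts, for 23407 genes in 6 columns, 1 per library. The submitters' processing notes name mm10 as the build and list STAR, Partek and DESeq2 with no role or order; the counting and its strand setting are not stated there. Each column was tied to the sample of its genotype and number, although its suffix is not the one in the label. Low values lay on even steps, read as 1 read each, but only 67.7% to 73.2% of nonzero values were whole multiples within 0.02. Whole reads were therefore not recovered for the table and no count test was run across genes. Read numbers are given for single low genes, Gfap included, whose values lay within 0.05 of whole multiples in every library. Depth was estimated as each total divided by its step. Gene coordinates of 96.4% of the genes were those of GENCODE M21, whose merged exons gave lengths.

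Genes with a mean of at least 10 (14707) entered the test. Their log2(value + 1) in TSP2KO and in WT was set side by side over all 6 libraries with limma 3.58.1 (R 4.3.3), using a mean-variance trend and a two-sided moderated test, adjusted over all genes tested by Benjamini-Hochberg. A gene passed at an adjusted p under 0.05. Fold changes on this scale understate those of low genes. No member was under the filter, so the exact permutation test planned for such genes was not needed. The fit was tested on simulated data. All 8 members were named. From other lists, genes were named by smallest p (up to 4) or highest mean (up to 2), or freely in lists of 10 or fewer. The genes most alike needed a mean of at least 50. Members and lists were chosen with earlier results of these data known. Alternatives were pseudocounts of 0.1 and 10, no filter, a mean of at least 100, 3 rescalings, no trend, a replicate block and each library left out. A few genes of the related lists are not reported here by name, although the counts over their lists include them.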

Additional observations from a re-analysis of the deposited data

How the results depend on the processing

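No member passed under any alternative that kept all 6 libraries, and 7 of the 8 kept their direction in every setting that tested them (Gfap, with a mean of 38.9, was not tested at a mean of at least 100). The exception was S100b, at 0.13 without TSP2KO 3, and between -0.67 and 0.13 with single libraries left out. Leaving out 1 library at a time gave log2 fold changes of -4.72 to -3.85 for Gfap and -2.38 to -1.72 for Gfra2, and both passed without the library labelled WT 3 and under no other single omission. For Erbb3, Ngfr and Pmp22 the same ranges were -1.54 to -0.78, -1.97 to -0.47 and -0.78 to -0.58, with no call. Without that library and TSP2KO 3, a setting chosen after seeing the data, 5 members passed, Gfap at -4.73, Gfra2 at -1.92, Erbb3 at -1.01, Ngfr at -1.27 and Pmp22 at -0.82. The related lists held 57 tested genes, the members among them. Those that passed went from 0 in either direction to 5 higher and 8 lower without the library labelled WT 3. The 8 lower genes include Gfap and Gfra2. Over the libraries left out singly, 0 to 5 passed as higher and 0 to 8 as lower. Without both libraries 8 passed as higher and 15 as lower, and the 15 include the 5 members just named. Over all genes, 0 to 357 passed as higher and 0 to 404 as lower with single libraries left out, and 664 and 657 without both. The 9 lower genes became 0 with a pseudocount of 0.1, no filter, a mean of at least 100 or quantile normalisation, 2 with values scaled to the library total, 14 with a pseudocount of 10 and 15 without a trend; the cause was not tested. With the replicate block 0 passed as higher and 0 as lower, and Gfap had -4.23 (limma adjusted p = 0.123). Deviations of same-numbered libraries correlated at -0.42, -0.25 and -0.40, and 0 libraries correlated best with their own number, so the numbers were not taken to pair them. Depth limits Gfap in TSP2KO, where it rests on 14 reads, and the genes near 0.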

Other observations

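Neuron markers other than Tubb3 and Stmn2 gave little or no signal. Of 9 neuron markers 2 were tested, Tubb3, a tubulin that cultured fibroblasts share, and Stmn2, a stathmin of growing axons. Stmn2 had 269, 221 and 706 normalised reads in TSP2KO 1, 2 and 3, against 12.9, 48.6 and 87.9 in WT 1, WT 2 and the library labelled WT 3 (log2 fold change 3.15, SE 0.73, limma adjusted p = 0.209), and every TSP2KO library lay above WT. It passed as higher in TSP2KO without the library labelled WT 3 (adjusted p = 0.0296). Snap25 and Nefm, which mark mature neurons, had at most 4 reads in any library and were chosen after their values were seen.

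Genes better known from central glia were also measured. Aldh1l1, a folate enzyme of astrocytes that fibroblasts share, had 56.3, 156 and 59.7 normalised reads in TSP2KO, against 383, 493 and 238 in WT (log2 fold change -2.13, SE 0.45, limma adjusted p = 0.181). Slc1a3, a glial glutamate transporter, had 20.7, 32.4 and 15.1 in TSP2KO, against 157, 75.3 and 42.3 in WT (log2 fold change -1.83, SE 0.53, adjusted p = 0.310). Both passed as lower in TSP2KO without the library labelled WT 3 (adjusted p = 0.0350 and 0.0426). Mog, of the oligodendrocyte sheath, had at most 3 reads. Cspg4, a proteoglycan of pericytes and glial progenitors, went the other way, with 4084, 3749 and 5362 in TSP2KO against 467, 447 and 1997 in WT (log2 fold change 2.54, SE 0.56, adjusted p = 0.190), and passed as higher in TSP2KO without the library labelled WT 3 (adjusted p = 0.00405).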
